A study of Homo sapiens with 12 samples.

Results

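ALDH1L1 and 9 further genes that mark astrocytes (GFAP, AQP4, S100B, SLC1A2, SLC1A3, AGT, SPARCL1, GJA1 and GLUL) were followed in neural cultures made from human embryonic stem cells. The genes were chosen by name, with earlier results of these data known, and matched by symbol to the Ensembl gene IDs of the count tables. All 10 were found, with 1 ID each, among 63925 IDs per library, and all 10 were among the 17819 genes with enough counts to be tested.

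The study asked how cultures of the embryonic stem cell lines H9 and H1 respond to dexamethasone, a man-made steroid that activates the glucocorticoid receptor. There were 4 groups of 3 sister cultures each. H9 cultures received 1 µM dexamethasone for 6 h or the DMSO vehicle, and H1 cultures received 1 µM dexamethasone for 6 h or the DMSO vehicle. All 12 cultures had been differentiated for 10 weeks by dual SMAD inhibition and kept in neurobasal medium with B-27 supplement, ascorbic acid, cyclic AMP, BDNF and GDNF. The standard formulation of B-27 contains corticosterone, itself a glucocorticoid, and the labels do not say which formulation was used. Each line is a single stem cell line, so a difference between H9 and H1 cannot be told apart from a difference between their differentiations. The replicates are sister cultures, and p-values measure only the spread between sister cultures.

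Astrocytes take up glutamate from synapses, turn it into glutamine, couple to one another through gap junctions and move water and ions at vessel walls. Their precursors in developing human cortex are radial glia, which already carry several of the same transcripts. Glucocorticoids act through a receptor that binds DNA at paired copies of a short half-site, and both astrocytes and their progenitors are known to carry that receptor. In RNA from a whole culture, fewer cells of a type and less RNA per cell cannot be told apart.

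Libraries held 20871163 to 27505804 counts in H9 dexamethasone cultures, 14751168 to 24728048 in H9 vehicle cultures, 23677289 to 25495510 in H1 dexamethasone cultures and 22839733 to 25597731 in H1 vehicle cultures. H9 vehicle culture 3 stood apart. It had the lowest total, and mitochondrially encoded genes took 0.607% of its counts, where the other H9 libraries had 4.80% to 5.64% and those of H1 2.91% to 3.23%. Dexamethasone effects in H9, differences between the lines in vehicle cultures and counts over gene lists in those cultures are given with and without it. As a check of the exposure, FKBP5, a receptor co-chaperone induced by glucocorticoids, averaged 28.2 ± 2.3 TMM-scaled CPM in H9 dexamethasone cultures and 4.42 ± 0.57 CPM in H9 vehicle cultures. In H1 it averaged 22.3 ± 3.1 CPM in dexamethasone cultures and 5.53 ± 0.57 CPM in vehicle cultures (SD, n = 3 each). ALDOC, a further astrocyte marker, and the radial glia markers SOX2 and HES5 were listed at 0 in all 12 libraries, so they have no values here.

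Of the 10 listed genes, ALDH1L1 had the greatest log2 difference between dexamethasone and vehicle in both lines. It encodes cytosolic 10-formyltetrahydrofolate dehydrogenase, a folate enzyme used as a marker of most astrocytes (ENSG00000144908.13, GRCh38 chr3:126103562-126197994, minus strand). In H9 it was at 49.4, 32.9 and 48.5 CPM in dexamethasone cultures, against 22.8, 19.1 and 40.3 CPM in vehicle cultures. Vehicle cultures 1 and 2 were below all 3 dexamethasone cultures, and vehicle culture 3, the library that stood apart, was inside their range. In H1 it was at 4.29, 4.46 and 3.59 CPM in dexamethasone cultures, against 1.53, 1.80 and 1.24 CPM in vehicle cultures. The H1 groups did not overlap, and the lowest dexamethasone culture was above the highest vehicle culture.

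With all 12 libraries the log2 fold change of ALDH1L1 for dexamethasone over vehicle was 0.68 ± 0.25 (SE) in H9 and 1.43 ± 0.31 in H1, or 1.6-fold and 2.69-fold. Neither passed an adjusted p of 0.05 in edgeR's quasi-likelihood test with Benjamini-Hochberg adjustment over all genes (adjusted p = 0.299 in H9 and 0.513 in H1, n = 3 per group). In the mean over both lines it was 1.05 ± 0.20 (95% confidence interval 0.62 to 1.49, adjusted p = 0.106 by the same edgeR test). In H1 its unadjusted p of 0.000643 by the same edgeR fit ranked 22 among all genes.

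Without H9 vehicle culture 3, which left cultures 1 and 2 as the H9 vehicle group, ALDH1L1 rose with dexamethasone in each line. Its log2 fold change was 1.06 ± 0.16 in H9 (adjusted p = 0.00412), 1.43 ± 0.22 in H1 (adjusted p = 0.00802) and 1.24 ± 0.14 over both lines (adjusted p = 0.000145), all by the same edgeR test. Of the 12 fits that left out 1 library, no other called ALDH1L1 for dexamethasone. The size in H1 was as before, because no H1 library was removed, while its SE was smaller because all groups share an estimate of the spread. The H9 and H1 effects differed by −0.75 ± 0.40 with all libraries and by −0.37 ± 0.27 without that culture (adjusted p = 0.548 and 0.662 by edgeR), which leaves the difference unresolved. DESeq2 called ALDH1L1 in H1 (adjusted p = 0.00302) and over both lines (log2 fold change 1.07, adjusted p = 0.000115) with all 12 libraries.

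Raw counts behind ALDH1L1 were 787 to 1265 in H9 dexamethasone, 456 to 592 in H9 vehicle, 92 to 111 in H1 dexamethasone and 31 to 47 in H1 vehicle cultures. The H1 values therefore rest on few reads. An antisense gene inside the locus, ALDH1L1-AS2, had 0 to 23 counts per library. Counting by strand is not stated, so how reads in the overlap of ALDH1L1 and its antisense partners were assigned is not known.

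**Figure D1:**
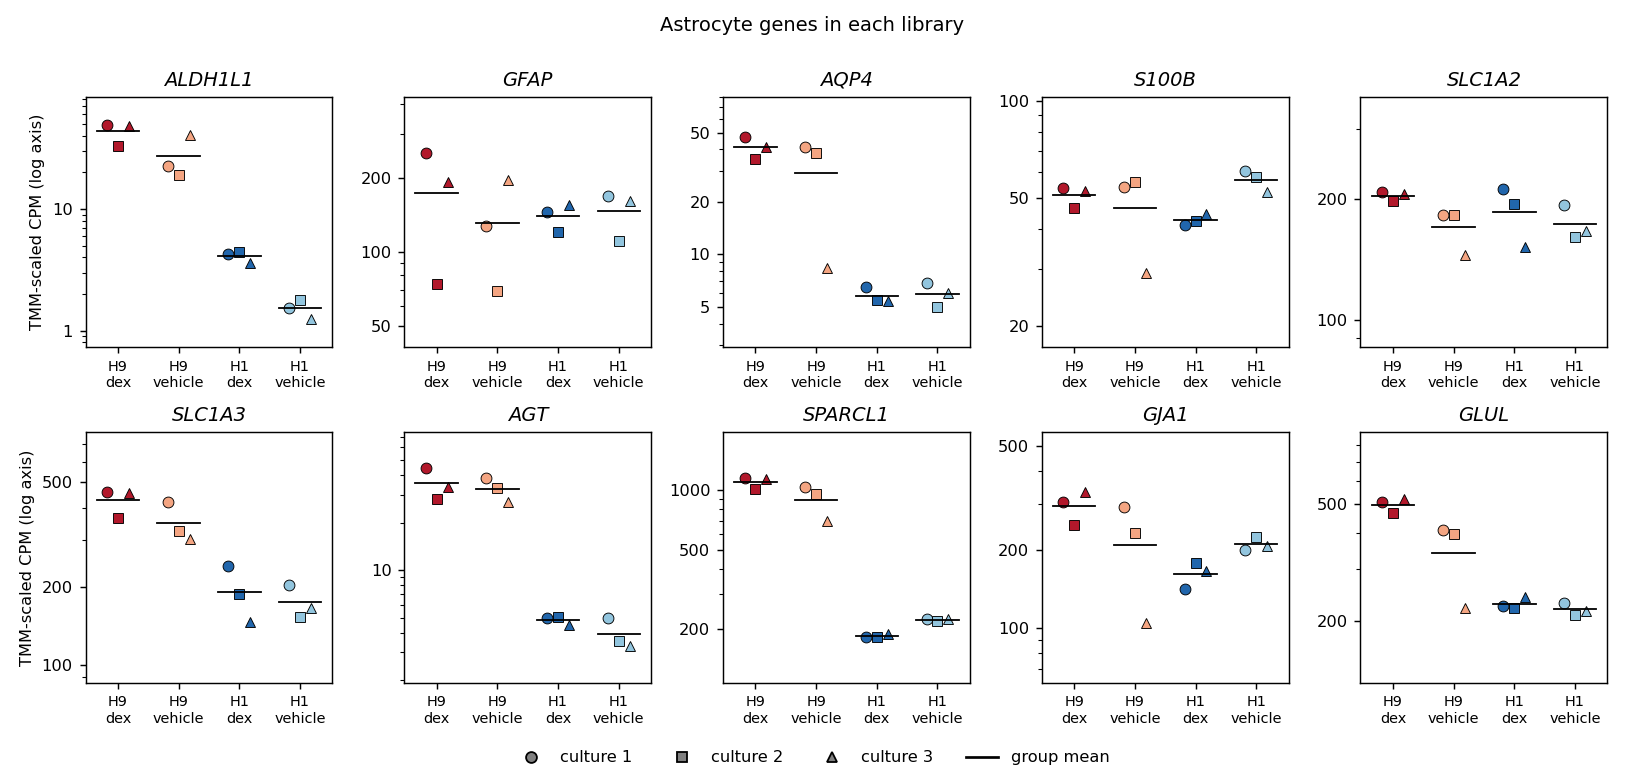
TMM-scaled CPM of each of the 10 astrocyte genes (log axis, a different range per panel) in H9 dexamethasone, H9 vehicle, H1 dexamethasone and H1 vehicle cultures. Symbols are culture numbers, lines are means of 3 cultures. ALDH1L1 spans 1.24 to 49.4 CPM, and H9 vehicle culture 3 (triangle) lies below its sister cultures in 8 panels and above them for ALDH1L1 and GFAP.

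RefSeq promoter windows on GRCh38.p14, from 250 bases before to 50 bases after a transcription start, were found for 7 of the 10 genes (13 windows). Those of ALDH1L1 are printed because it had the greatest differences of the 10 genes in both comparisons, and those of AGT and SPARCL1 because they alone held a half-site of the glucocorticoid receptor. Each is given 5′ to 3′ on the gene's strand, and capitals mark matches to motifs on either strand. The half-site was searched as AGAACA, which reads TGTTCT where it lies on the other strand. The core promoter box was searched as TATAAA, whose match on the other strand reads TTTATA.
ALDH1L1 chr3:126180537-126180836 (minus strand): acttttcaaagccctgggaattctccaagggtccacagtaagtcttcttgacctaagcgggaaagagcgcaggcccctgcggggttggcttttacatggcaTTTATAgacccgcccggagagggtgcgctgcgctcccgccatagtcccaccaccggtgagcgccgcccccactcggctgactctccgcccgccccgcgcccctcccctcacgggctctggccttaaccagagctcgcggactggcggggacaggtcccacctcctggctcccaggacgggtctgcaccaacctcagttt
ALDH1L1 chr3:126181137-126181436 (minus strand): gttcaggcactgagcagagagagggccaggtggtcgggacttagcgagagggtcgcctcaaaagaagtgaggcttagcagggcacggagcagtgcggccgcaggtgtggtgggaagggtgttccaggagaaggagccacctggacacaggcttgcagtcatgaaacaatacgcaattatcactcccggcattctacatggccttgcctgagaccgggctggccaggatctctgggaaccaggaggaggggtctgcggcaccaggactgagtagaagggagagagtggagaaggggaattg
AGT chr1:230714073-230714372 (minus strand): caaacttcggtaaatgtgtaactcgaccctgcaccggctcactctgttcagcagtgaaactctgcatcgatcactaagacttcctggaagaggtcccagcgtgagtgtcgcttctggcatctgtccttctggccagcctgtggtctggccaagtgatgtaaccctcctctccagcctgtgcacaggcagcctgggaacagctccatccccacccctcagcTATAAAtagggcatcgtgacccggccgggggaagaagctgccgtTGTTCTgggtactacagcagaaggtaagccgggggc
SPARCL1 chr4:87529327-87529626 (minus strand): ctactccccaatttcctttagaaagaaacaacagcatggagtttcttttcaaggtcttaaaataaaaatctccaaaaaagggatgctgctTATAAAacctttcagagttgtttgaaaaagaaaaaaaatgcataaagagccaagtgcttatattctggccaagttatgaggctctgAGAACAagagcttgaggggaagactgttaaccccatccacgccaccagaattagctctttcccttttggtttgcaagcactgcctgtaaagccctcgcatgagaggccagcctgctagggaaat
Both windows of ALDH1L1 lie within the span of the gene given above. Neither held the half-site, and the first held a TATAAA match on the reverse strand, 149 bases before the start. The AGT window held TATAAA at 30 bases before the start and a half-site at 14 bases after it. The SPARCL1 window held a half-site at 74 bases and TATAAA at 160 bases before the start. Over all 35116 windows, 14.8% held the half-site, 11.5% held TATAAA and 0.00285% (1 window) held the full element (AGAACA, then any 3 bases, then TGTTCT), which holds the half-site by construction. None of the 13 windows held the full element, 2 held the half-site and 4 held TATAAA (1 each of ALDH1L1, AQP4, AGT and SPARCL1). These are matches of letters only.

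No dexamethasone effect on the other 9 astrocyte genes passed the test with all 12 libraries. With these, 0 of the 10 genes passed an adjusted p of 0.05 in H9, where 0.0673% of all genes did, 0 in H1, where 0.0505% did, and 0 over both lines, where 0.101% did. At an unadjusted p under 0.05 in edgeR there were 3 genes in H9 (16.3% of all genes), 1 in H1 (2.95%) and 2 over both lines (7.49%). DESeq2 called 1 of the 10 genes in H1, where it called 32 over all genes, and 1 over both lines, where it called 116. In each case this was ALDH1L1. In H9 all 10 log2 fold changes were positive, with a median of 0.35 beside −0.02 for all genes tested. Without vehicle culture 3 the median was 0.17 beside −0.01, and S100B and AGT were negative. Medians of other cell type markers in H9 ran from −0.41 (mesenchymal cells) to 0.30 (oligodendrocyte lineage and dividing cells) with all libraries. Without culture 3 they ran from −0.25 (choroid plexus and ependyma) to 0.36 (dividing cells). Without H9 vehicle culture 3, edgeR called 1 of the 10 in H9 (0.293% of all genes), 2 in H1 (0.326%) and 2 over both lines (0.774%), namely ALDH1L1 and, in H1 and over both lines, S100B. In H1 with all libraries, 5 log2 fold changes were positive and 5 negative, with a median of 0.01 beside 0 for all genes.

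Glutamate handling is covered by 3 of the genes, and GLUL showed the clearest separation among them. GLUL, glutamine synthetase, which makes glutamine from glutamate, was at 509, 467 and 520 CPM in H9 dexamethasone cultures, against 408, 395 and 222 CPM in H9 vehicle cultures. The groups did not overlap, and the lowest vehicle value was that of culture 3. Its log2 fold change in H9 was 0.55 ± 0.18 (adjusted p = 0.299 by edgeR) and 0.31 ± 0.07 without culture 3 (adjusted p = 0.0648). In H1, GLUL was at 224, 221 and 241 CPM with dexamethasone, against 231, 209 and 217 CPM with vehicle, and these groups overlapped (log2 fold change 0.06 ± 0.18).

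SLC1A2, the main glutamate transporter of mature astrocytes, was at 208, 198 and 206 CPM in H9 dexamethasone cultures, against 182, 183 and 145 CPM in H9 vehicle cultures. These groups did not overlap either, and the log2 fold change was 0.26 ± 0.14 (adjusted p = 0.323 by edgeR) and 0.16 ± 0.11 without culture 3 (adjusted p = 0.62). In H1 it was at 212, 194 and 152 CPM with dexamethasone, against 193, 161 and 166 CPM with vehicle, and the groups overlapped. SLC1A3, the glutamate transporter that radial glia also carry, had overlapping groups in both lines. It was at 458, 367 and 457 CPM in H9 dexamethasone cultures against 419, 327 and 303 CPM in H9 vehicle cultures, and at 239, 187 and 146 CPM in H1 dexamethasone cultures against 203, 153 and 166 CPM in H1 vehicle cultures. Its log2 fold changes were 0.29 ± 0.19 in H9 (0.20 ± 0.17 without culture 3) and 0.13 ± 0.19 in H1.

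Among the structural and channel genes, no dexamethasone difference passed the test. GFAP, the intermediate filament of astrocytes, was at 251, 74.1 and 192 CPM in H9 dexamethasone cultures, against 127, 69.3 and 195 CPM in H9 vehicle cultures. Culture 2 was the lowest in both groups, and its sister cultures were far above it. In H1, GFAP was at 145, 120 and 155 CPM with dexamethasone, against 169, 110 and 160 CPM with vehicle. The log2 fold changes were 0.40 ± 0.41 in H9 and −0.06 ± 0.41 in H1, and in H9 no other gene of the list had a wider error. In H9 the value without culture 3 was 0.81 ± 0.35 (adjusted p = 0.405 by edgeR).

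AQP4, the water channel of astrocyte endfeet, was at 47.3, 35.3 and 41.5 CPM in H9 dexamethasone cultures, against 41.5, 38.0 and 8.37 CPM in H9 vehicle cultures. The first 2 vehicle cultures lay inside the range of the dexamethasone cultures and culture 3 far below it, so the log2 fold change was 0.49 ± 0.40 with culture 3 and 0.06 ± 0.12 without it. In H1, AQP4 was at 6.45, 5.45 and 5.39 CPM with dexamethasone, against 6.83, 4.97 and 5.97 CPM with vehicle. The antisense gene AQP4-AS1 had 28 to 86 counts per library beside 123 to 1081 for AQP4. How reads in their overlap were assigned is not known.

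GJA1, connexin 43, the main gap junction protein of astrocytes, showed values of opposite sign in the lines. It was at 304, 249 and 332 CPM in H9 dexamethasone cultures, against 290, 231 and 105 CPM in H9 vehicle cultures, and these groups overlapped. In H1 it was at 141, 177 and 166 CPM in dexamethasone cultures, against 199, 224 and 207 CPM in vehicle cultures, which did not overlap. The log2 fold changes were 0.50 ± 0.27 in H9 (0.18 ± 0.12 without culture 3) and −0.38 ± 0.27 in H1 (adjusted p = 0.331 and 1 by edgeR with all libraries).

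Of the secreted and calcium-binding proteins, S100B and SPARCL1 had lower values with dexamethasone in every H1 culture. S100B, a small calcium-binding protein of astrocytes that is also released, was at 41.0, 42.3 and 44.4 CPM in H1 dexamethasone cultures, against 60.5, 57.9 and 51.9 CPM in H1 vehicle cultures. The groups did not overlap, and the log2 fold change was −0.41 ± 0.19 with all libraries (adjusted p = 1 by edgeR). Without H9 vehicle culture 3 in the shared estimate of the spread it was −0.41 ± 0.07, and S100B fell by the same edgeR test (adjusted p = 0.0173). In H9, S100B was at 53.4, 46.6 and 52.6 CPM with dexamethasone, against 54.1, 55.9 and 29.2 CPM with vehicle. Its H9 value was 0.13 ± 0.19 with culture 3 and −0.11 ± 0.08 without it, so the sign turned on that library.

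SPARCL1, a matricellular protein that astrocytes release onto synapses, was at 184, 184 and 189 CPM in H1 dexamethasone cultures, against 225, 220 and 225 CPM in H1 vehicle cultures. The sister cultures lay close together and the groups did not overlap, with a log2 fold change of −0.26 ± 0.13 (adjusted p = 1 by edgeR, and 0.0757 without H9 vehicle culture 3). In H9, SPARCL1 was at 1144, 1010 and 1128 CPM with dexamethasone, against 1028, 953 and 699 CPM with vehicle, and these groups overlapped. The H9 log2 fold change without culture 3 was 0.14 ± 0.06 (adjusted p = 0.426 by edgeR). AGT, angiotensinogen, the precursor of the angiotensin peptides and in brain mainly an astrocyte product, had overlapping groups in both lines. It was at 44.1, 28.3 and 33.8 CPM in H9 dexamethasone cultures against 38.2, 32.9 and 26.8 CPM in H9 vehicle cultures, and at 4.98, 5.03 and 4.45 CPM in H1 dexamethasone cultures against 4.96, 3.55 and 3.28 CPM in H1 vehicle cultures. Its log2 fold changes were 0.11 ± 0.19 in H9 (−0.01 ± 0.15 without culture 3) and 0.30 ± 0.21 in H1.

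**Figure D2:**
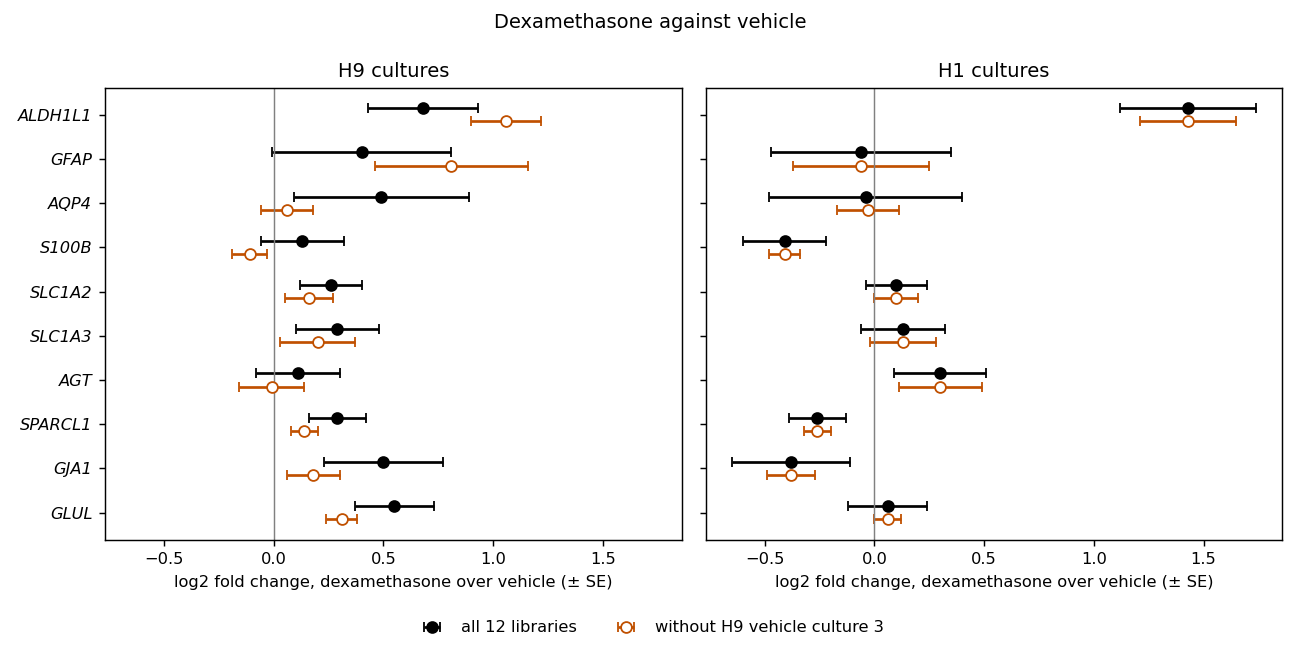
Log2 fold changes ± SE for dexamethasone over vehicle in H9 (left) and H1 (right) cultures, with all 12 libraries (filled) and without H9 vehicle culture 3 (open). ALDH1L1 lies farthest right in both panels, at 0.68 and 1.06 in H9 and 1.43 in H1, and S100B, SPARCL1 and GJA1 lie left of 0 in H1.

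Counting groups that did not overlap, 2 of the 10 genes were higher with dexamethasone in H9 (GLUL and SLC1A2), where 9.76% of all genes were. In H1, 1 was higher (ALDH1L1) and 3 lower (S100B, SPARCL1 and GJA1), where 7.15% and 6.98% of all genes were. The difference of the dexamethasone effects, H9 minus H1, was tested as an interaction term in the edgeR fit and called 0 of 17819 genes, with 1329 (7.46%) at an unadjusted p under 0.05, and DESeq2 and limma-voom called 0 as well. SPARCL1 had the lowest unadjusted p of the 10 there (difference 0.55 ± 0.18, adjusted p = 0.548), followed by GJA1 (0.88 ± 0.38, adjusted p = 0.548). Without H9 vehicle culture 3 these differences were 0.41 ± 0.09 (adjusted p = 0.306) and 0.57 ± 0.16 (adjusted p = 0.363), again by edgeR. A different response of the lines was therefore not shown for any of the 10 genes.

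H9 cultures held more of most of these transcripts than H1 cultures. In dexamethasone cultures 7 of the 10 genes were higher in H9 and 0 lower by the edgeR test, where 22.5% of all genes were higher and 43.6% were called in either direction. In vehicle cultures 6 were higher and 0 lower, where 25.7% of all genes were higher and 46.9% were called. The median log2 difference of the 10, H9 over H1, was 1.15 in dexamethasone and 0.82 in vehicle cultures, beside −0.01 and 0.03 for all genes tested. Without H9 vehicle culture 3, edgeR called 8 of the 10 higher in dexamethasone (31.9% of all genes) and 7 in vehicle cultures (30.1%). The summed level of the 10 genes was 2508 to 3069 CPM in H9 dexamethasone, 1774 to 2611 in H9 vehicle, 1107 to 1202 in H1 dexamethasone and 1146 to 1294 in H1 vehicle cultures.

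Of the 10 genes, ALDH1L1 differed most. In dexamethasone cultures its mean was 43.6 ± 9.3 CPM in H9 against 4.11 ± 0.46 CPM in H1, 10.6-fold higher in H9 (log2 3.40 ± 0.28, adjusted p = 2.2e-06 by edgeR). In vehicle cultures its mean was 27.4 ± 11 CPM in H9 against 1.52 ± 0.28 CPM in H1, 17.8-fold higher in H9 (log2 4.15 ± 0.31, adjusted p = 1.11e-06 by edgeR). Every H9 library was above every H1 library. AGT had the next greatest difference in vehicle cultures, with 32.6 ± 5.7 CPM in H9 and 3.93 ± 0.90 CPM in H1 (8.32-fold, adjusted p = 6.58e-07 by edgeR), and again the lines did not overlap.

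AQP4 averaged 29.3 ± 18 CPM in H9 vehicle cultures (39.8 without culture 3) and 5.92 ± 0.93 CPM in H1 vehicle cultures (log2 2.32 ± 0.43, adjusted p = 0.000989 by edgeR). Even in H9 vehicle culture 3, at 8.37 CPM, it was above all H1 libraries. SPARCL1 averaged 893 ± 170 CPM in H9 vehicle and 223 ± 2.9 CPM in H1 vehicle cultures (log2 2.00 ± 0.13, adjusted p = 5.32e-07 by edgeR). With dexamethasone the SPARCL1 difference was 2.56 ± 0.14, with means of 1094 ± 73 CPM in H9 against 186 ± 2.9 CPM in H1.

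The glutamate genes did not move together between the lines. SLC1A3 was 2.01-fold higher in H9 vehicle cultures (350 ± 61 CPM in H9 and 174 ± 26 CPM in H1, adjusted p = 0.00108 by edgeR), and GLUL 1.56-fold higher (341 ± 100 CPM in H9 and 219 ± 11 CPM in H1, adjusted p = 0.0127). The GLUL groups overlapped, because H9 vehicle culture 3 lay inside the H1 range. SLC1A2 averaged 170 ± 21 CPM in H9 and 174 ± 17 CPM in H1 vehicle cultures, a log2 difference of −0.03 with a 95% confidence interval of −0.32 to 0.27. Without culture 3 the SLC1A2 difference was 0.07 ± 0.11.

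GFAP (log2 −0.17, interval −1.05 to 0.72) and S100B (−0.29, interval −0.70 to 0.13) did not pass in vehicle cultures with all libraries either. Without culture 3 GFAP was at −0.57 ± 0.35 (adjusted p = 0.173 by edgeR) and S100B at −0.05 ± 0.08. Limma-voom with sample quality weights called GFAP lower in H9 vehicle cultures (log2 −0.86, adjusted p = 0.0418). For the genes higher in H9 vehicle cultures with all libraries, the log2 differences without culture 3 were 3.77 for ALDH1L1, 3.18 for AGT, 2.75 for AQP4, 2.15 for SPARCL1, 1.10 for SLC1A3 and 0.87 for GLUL.

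GJA1 was called between the lines in dexamethasone cultures (295 ± 42 CPM in H9 and 161 ± 18 CPM in H1, log2 0.87 ± 0.27, adjusted p = 0.0215 by edgeR). In vehicle cultures it was at −0.01 ± 0.27 with all libraries, and at 0.31 ± 0.12 without H9 vehicle culture 3 (adjusted p = 0.034 by edgeR). GLUL (log2 1.13), SLC1A3 (1.17), AGT (2.87) and AQP4 (2.84) were also higher in H9 with dexamethasone by that test. SLC1A2, GFAP and S100B did not pass there, with log2 differences of 0.13, 0.30 and 0.26. S100B passed once H9 vehicle culture 3 was left out of the shared spread (adjusted p = 0.00577 by edgeR).

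**Figure D3:**
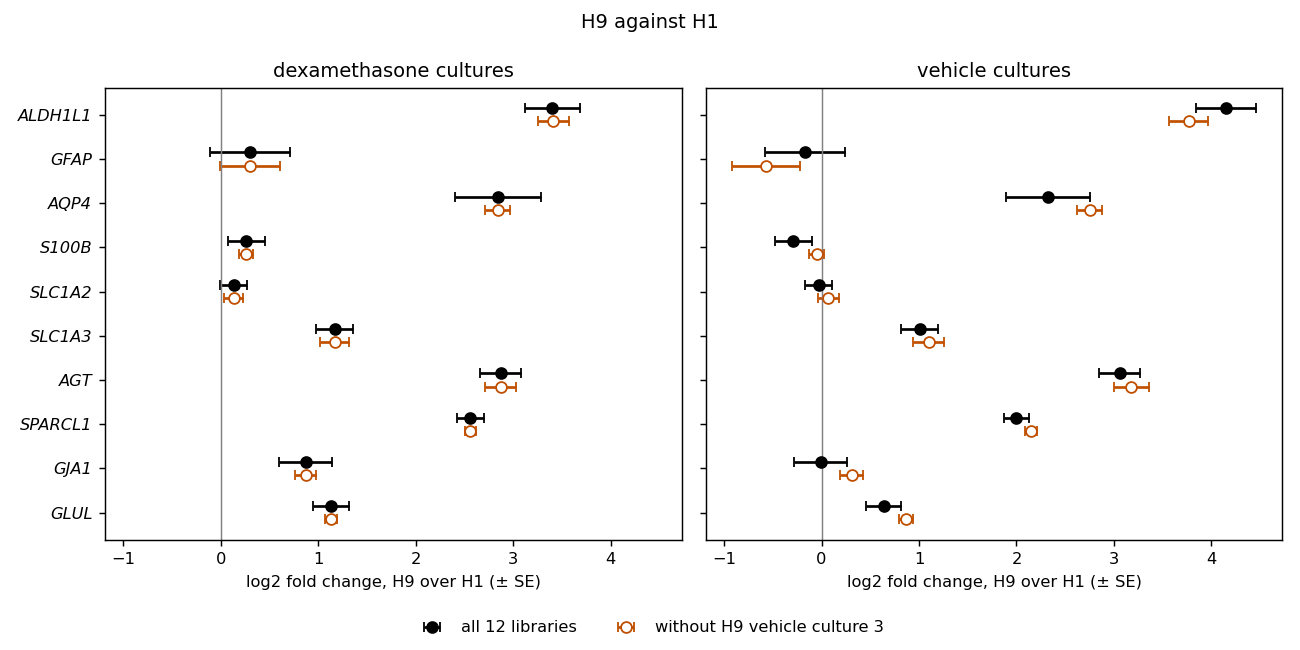
Log2 fold changes ± SE for H9 over H1 in dexamethasone (left) and vehicle (right) cultures, with all 12 libraries (filled) and without H9 vehicle culture 3 (open). ALDH1L1 is highest in both panels (3.40 and 4.15), and of GFAP, S100B and SLC1A2 none passes with all libraries, although GFAP is at −0.57 in vehicle cultures without culture 3.

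Within groups the genes did not keep a common order of cultures. H9 vehicle culture 3 had 1.92 times the ALDH1L1 and 1.99 times the GFAP level of the mean of its sister cultures. The other 8 genes were below their sisters in that library, from AQP4 at 21.1%, GJA1 at 40.3%, S100B at 53.1% and GLUL at 55.3% of the sister mean up to SLC1A3 at 81.2%. The summed neuron markers of that library were also low, at 4344 CPM, against 5616 and 5733 CPM in its sister cultures. Its summed radial glia markers were at 10377 CPM against 7635 and 7609 CPM, and NES, the intermediate filament nestin, carried that excess, at 5545 CPM against 1057 and 1094 CPM. Without NES the sum was lower in that library than in its sisters, at 4831 CPM against 6578 and 6514 CPM. The part that cell makeup or RNA quality played in these values was not tested. In H9 dexamethasone cultures, culture 2 was the lowest for all 10 genes, and for GFAP culture 2 was the lowest in all 4 groups.

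**Figure D4:**
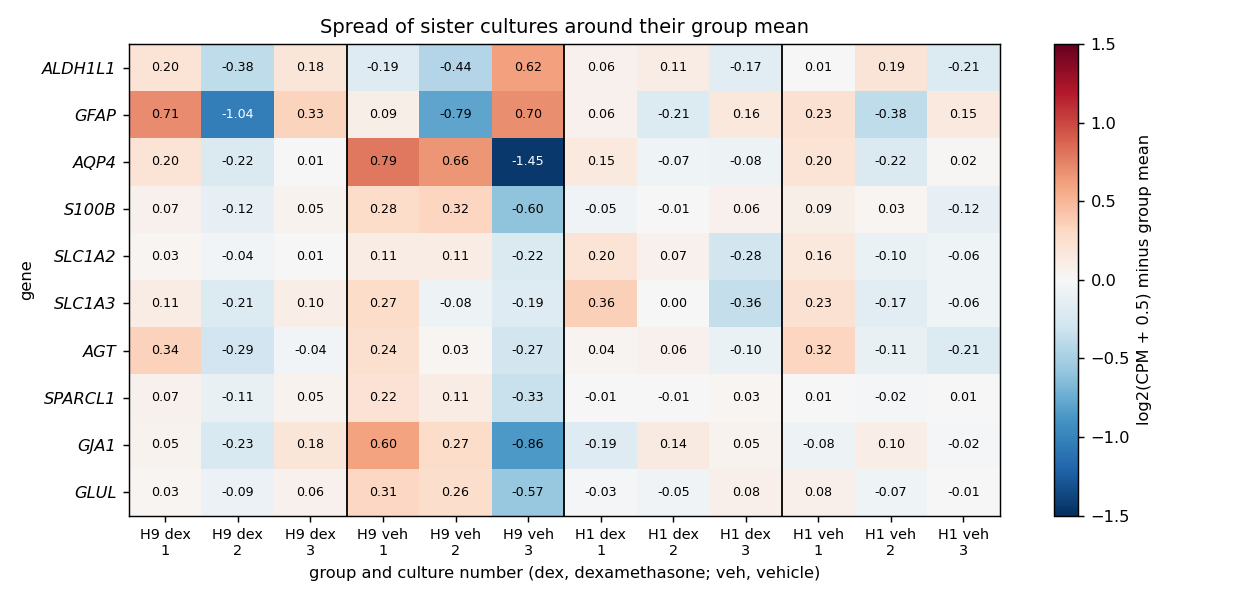
Log2(CPM + 0.5) of each gene minus its group mean, in each of the 12 libraries (columns) for the 10 genes (rows). Red is above and blue below the group mean. H9 vehicle culture 3 runs from −1.45 for AQP4 to 0.70 for GFAP, and GFAP is at −1.04 in H9 dexamethasone culture 2.

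Levels can be compared between genes only per length, so CPM was divided by the kilobases of exon of each gene. The length took all annotated exons together, 13712 bases for ALDH1L1 and 5995 for AQP4, and single transcripts can be shorter. Orders between genes therefore hold for this length only. SPARCL1 had the highest mean of the 10 in every group, at 315 ± 21 CPM per kilobase in H9 dexamethasone, 257 ± 50 in H9 vehicle, 53.5 ± 0.84 in H1 dexamethasone and 64.2 ± 0.83 in H1 vehicle cultures. ALDH1L1 had the lowest mean by this measure in every group, at 3.18 ± 0.68, 2.00 ± 0.83, 0.300 ± 0.033 and 0.111 ± 0.020 CPM per kilobase in the same order of groups. Before division by length, its mean in H9 dexamethasone cultures was 43.6 CPM, above those of AQP4 (41.4) and AGT (35.4). In H9 vehicle cultures the order after SPARCL1 was GJA1, SLC1A3, GLUL, S100B, AGT, GFAP, SLC1A2, AQP4 and ALDH1L1. Ranges overlapped there between GJA1 and SLC1A3, GLUL and S100B, and every neighbouring pair from AGT down, so those places are not resolved. The H9 dexamethasone cultures had the same order of means.

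In H1 vehicle cultures SPARCL1 and GJA1 overlapped at the top (64.2 ± 0.83 and 61.6 ± 3.8 CPM per kilobase), followed by S100B, SLC1A3, GLUL, GFAP, SLC1A2, AGT, AQP4 and ALDH1L1. Of those neighbours SLC1A3 and GLUL overlapped, and the rest did not. The order in H1 dexamethasone cultures differed only in that SLC1A3 and S100B, whose ranges overlapped, changed places. AGT was thus above GFAP and SLC1A2 by its mean in H9 vehicle cultures and below both in H1 vehicle cultures.

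**Figure D5:**
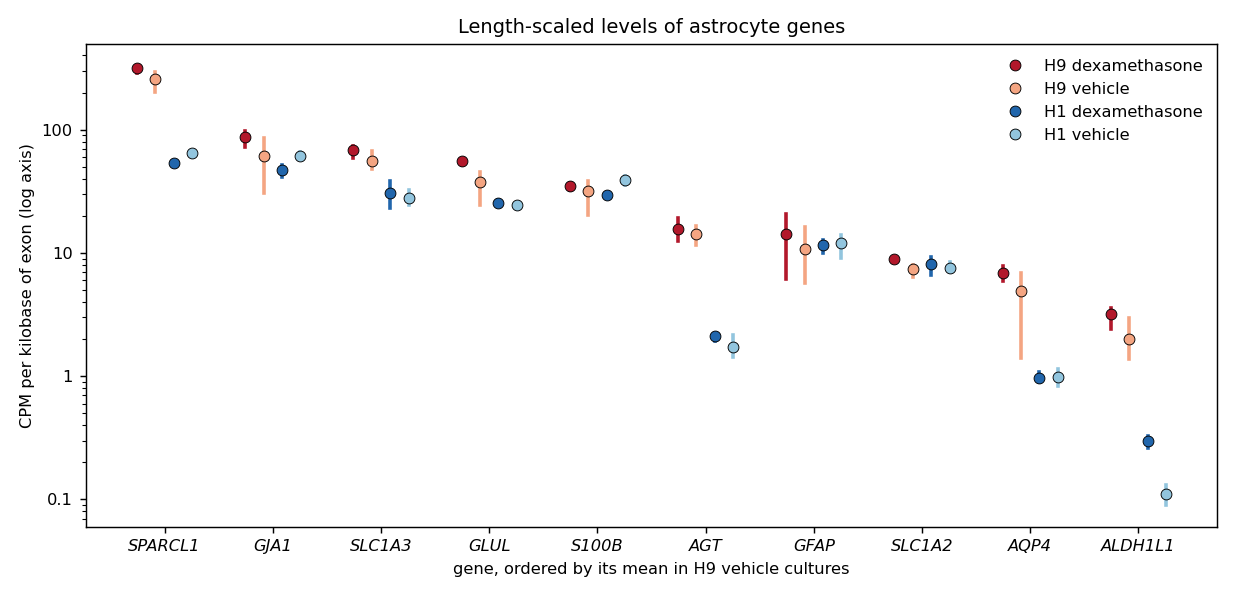
CPM per kilobase of exon (log axis) of the 10 genes, as group means (points) and the range of 3 cultures (bars) in H9 dexamethasone, H9 vehicle, H1 dexamethasone and H1 vehicle cultures. Means run from 0.111 for ALDH1L1 in H1 vehicle to 315 for SPARCL1 in H9 dexamethasone cultures.

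Of the further astrocyte genes that passed the test between the lines, most were higher in H9. In vehicle cultures 25.7% of all genes were higher and 21.2% lower in H9 with all libraries, and 30.1% and 28.6% without H9 vehicle culture 3. Of 37 further astrocyte genes, 31 were tested, and in vehicle cultures 17 were higher and 1 lower in H9, with a median log2 difference of 0.85 beside 0.03 for all genes. Without culture 3, 21 were higher and 3 lower. The lowest adjusted p-values were those of the bicarbonate transporter SLC4A4 (log2 1.59), the GABA transporter SLC6A11 (2.98), FAM107A (2.15) and the neurotrophin receptor NTRK2 (1.77). Of 12 tested genes of the aquaporin and endfoot complex, 6 were higher and 0 lower with and without culture 3, among them the dystrobrevin DTNA (0.91), the adhesion protein HEPACAM (2.40) and AQP11 (1.05). The lists share some genes, HEPACAM among them, so their counts are not separate. Of 16 tested reactive astrocyte genes, 3 were higher and 3 lower (7 and 4 without culture 3), with CHI3L1 at 3.33. Of 13 tested astrocyte transcription factors, 4 were higher and 5 lower (3 and 6 without culture 3), and SOX9 was lower in H9 (−0.46).

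In the same contrast, of 22 tested folate enzymes besides ALDH1L1, 7 were higher and 7 lower in H9 vehicle cultures (6 and 7 without culture 3). Among those with the lowest adjusted p, thymidylate synthase TYMS (−1.18), MTHFD2 (−1.13) and MTHFD1 (−0.36) were lower. Of 21 tested genes of glutamate uptake and the glutamine cycle, 6 were higher and 6 lower (10 and 6 without culture 3), with the transporter SLC1A6 at 1.15 and SLC1A5 at −1.01. Of 11 tested genes of the renin-angiotensin system besides AGT, 3 were higher and 1 lower (4 and 1 without culture 3), and the peptidase MME was at −1.19. Of 5 tested connexins besides GJA1, 1 was higher and 2 lower (1 and 3 without culture 3), with GJC1 at −1.11.

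Of 6 tested S100 genes, 3 were higher and 2 lower in H9 vehicle cultures with and without culture 3, with S100A16 at 1.75. Of 7 tested genes of the SPARC family, 4 were higher and 2 lower with and without it, with SMOC2 at −2.44. Of 8 tested intermediate filament genes, 3 were higher and 1 lower with all libraries, and 2 were higher and 2 lower without culture 3. NES was among the higher ones at 1.38 ± 0.50 with all libraries (adjusted p = 0.0384 by edgeR), and at 0.13 ± 0.10 without culture 3 (adjusted p = 0.276).

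Markers of other cell types moved between the lines beside the astrocyte genes. All 7 markers of dividing cells were lower in H9 vehicle cultures, with and without culture 3, with a summed level of 62.1 to 88.1 CPM in H9 and 418 to 487 CPM in H1. Of 8 mesenchymal markers 4 were lower and 1 higher, with and without culture 3, with sums of 233 to 381 CPM in H9 and 1821 to 3271 CPM in H1. Of 10 neuron markers 4 were higher and 1 lower (6 and 1 without culture 3), with sums of 4344 to 5733 CPM in H9 and 3943 to 3993 CPM in H1. TUBB3, 1 of these 10, averaged only 0.692 CPM in H9 vehicle and 0.46 CPM in H1 vehicle cultures. Of 9 tested radial glia markers 2 were higher and 1 lower (3 and 2 without culture 3), of 6 choroid plexus and ependyma markers 5 were higher and 0 lower with and without it, and of 6 tested oligodendrocyte lineage markers 2 were higher and 1 lower (3 and 1 without it). Hepatocyte and endoderm markers, listed because AGT is also a liver product, had 1 of 3 tested higher, TTR, which the choroid plexus also makes, and 0 lower (1 and 1 without culture 3). Summed microglia and endothelium markers stayed at or under 1.5 CPM in every library. The microglia marker AIF1 was listed at 0 throughout, so, like SOX2, it has no values here. The part of cell makeup in the differences of the astrocyte genes was not tested.

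With dexamethasone over both lines, 1 of the 31 further astrocyte genes passed with all 12 libraries, where 0.101% of all genes did. This was FAM107A, an actin-associated protein also used as a marker of outer radial glia. It averaged 808 ± 83 CPM in H9 dexamethasone and 401 ± 74 CPM in H9 vehicle cultures, and 171 ± 41 CPM in H1 dexamethasone and 90.4 ± 11 CPM in H1 vehicle cultures (log2 0.97 ± 0.13, adjusted p = 0.0105 by edgeR). No gene of the other lists named above passed over both lines with all libraries. Without H9 vehicle culture 3, the metallothionein MT3 (log2 0.85) and the integrin ITGB4 (0.67) of the astrocyte list also rose over both lines by the same edgeR test. So did the water channel AQP1 (0.80) and the neurofilaments NEFL (0.25) and NEFM (0.23), while KCNJ13 (−0.94) and PDGFRB (−0.34) fell. In that fit 0.774% of all genes were called over both lines. In H9 the direction of the NEFM, NEFL and KCNJ13 means turned on culture 3. NEFM averaged 161 CPM in H9 dexamethasone and 278 CPM in H9 vehicle cultures (147 CPM without culture 3). For NEFL these means were 829 and 908 CPM (701 CPM without it). KCNJ13 averaged 1.59 CPM in H9 dexamethasone and 1.48 CPM in H9 vehicle cultures (2.08 CPM without culture 3). In H1 KCNJ13 averaged 0.742 CPM with dexamethasone and 2.11 CPM with vehicle.

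Among the genes whose profile over the 12 libraries was most like that of ALDH1L1 were GATA3, LGI3, LHX4 and SHOX2. Likeness was the root mean square difference of centred log2(CPM + 0.5) values, which was 0.525 for GATA3 and 0.553 for SHOX2, beside a median of 1.85 over 14093 genes. These 4 had far higher mean levels in H9 than in H1, as LGI3 shows with 15.1 ± 1.9 CPM in H9 dexamethasone, 13.8 ± 1.1 in H9 vehicle, 1.55 ± 0.34 in H1 dexamethasone and 1.30 ± 0.26 in H1 vehicle cultures. The single nearest gene was SLC39A12 for AQP4 (0.171), SLC44A3 for S100B (0.115), SFRP1 for SLC1A2 (0.0908), CDKL2 for SLC1A3 (0.120), LGI3 for AGT (0.239), PIR for SPARCL1 (0.114), ANXA1 for GJA1 (0.132), SNAP25 for GLUL (0.0943) and ABCC3 for GFAP (0.293). GFAP had the least close neighbour after ALDH1L1.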

How the data were processed

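Polyadenylated RNA was sequenced in 12 libraries. Per the submitters' processing notes, reads were handled with STAR 2.5.3a and an unversioned HTSeq on hg38 (GRCh38.p10). The deposited values are unnormalized whole-number read counts. Annotation release, strand setting and each library's flow cell are not given in the sources, so no batch could be fitted. Symbols came from a gene name table for 57577 IDs and GENCODE 29 for 507, and 5841 had neither. Coordinates and exon lengths are GRCh38 from GENCODE 29.

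From these counts, genes were kept by filterByExpr and scaled by TMM in edgeR 4.0.16 (R 4.3.3). A quasi-likelihood F-test on 1 mean per group over 12 libraries (8 residual degrees of freedom) gave log2 fold changes, with Benjamini-Hochberg adjustment over 17819 genes and a threshold of 0.05. It was tested on simulated data without an outlying library such as H9 vehicle culture 3. Of log2 changes of 1 it recovered 74% to 78%, and 2.86% to 5.98% of its calls were false. Levels are TMM-scaled CPM, mean ± SD over 3 cultures. No pair of sister cultures agreed within sampling noise.

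The 10 genes and all lists were chosen with earlier results of these data known. All 10 are named. Of each other list at most 4 genes are named, those with the lowest adjusted p and a mean CPM of at least 1. Some genes that this rule takes in are not reported here. FKBP5 was named as the check of the exposure. ALDOC, SOX2, HES5, AIF1, TUBB3 and the genes called without H9 vehicle culture 3 were named after their values were seen. Alternatives were RLE scaling, DESeq2 1.42.0, limma-voom (limma 3.58.1), no filter, a stricter filter (CPM 1 or more, 3 libraries), a replicate block and leaving out each library. Quality weights in limma-voom and fits of each line alone were added after the data were seen.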

Additional observations from a re-analysis of the deposited data

How the results depend on the processing

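The line differences of ALDH1L1, AGT, AQP4, SPARCL1 and SLC1A3 passed in all 12 fits that left out 1 library, in both treatments. GLUL in vehicle cultures passed in 11 of 12, and GJA1 in dexamethasone cultures in 8 of 12. The number of the 10 genes called between lines was 6 to 8 in dexamethasone and 5 to 7 in vehicle cultures over these fits. Over all genes, 6106 to 11697 were called in dexamethasone (7777 with all libraries) and 6711 to 10608 in vehicle cultures (8350).

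Dexamethasone calls turned on the setting. For H9, 12 genes were called over all genes, with DESeq2 166 (84 higher, 82 lower), with no filter 24, with quality weights 263, with H9 alone 2, and 6 to 53 when 1 library was left out. For H1 they were 9, with DESeq2 32, with a replicate block 5, with quality weights 110, with H1 alone 50, and 3 to 59. For both lines they were 18, with DESeq2 116, with no filter 30, with quality weights 212, and 10 to 140. Of the 10 genes, quality weights called 2 in H9 (ALDH1L1 and GLUL), 3 in H1 (ALDH1L1, S100B and SPARCL1) and 1 over both lines. DESeq2 and the fit without a filter called 1 in H1 and 1 over both lines, ALDH1L1, and H1 alone called 2, ALDH1L1 and S100B. Leaving out 1 library gave 0 to 1 in H9, 0 to 2 in H1 and 0 to 2 over both lines, the highest each time without H9 vehicle culture 3. Between the lines in vehicle cultures, quality weights also called GFAP, lower in H9 (−0.86). The causes were not tested.

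ALDH1L1 kept its sign for dexamethasone under each alternative, from 0.48 to 1.13 in H9, 1.30 to 1.57 in H1 and 0.95 to 1.33 over both lines, with adjusted p of 0.000907 to 0.596, 0.00302 to 1 and 0.000115 to 0.349. Signs turned only for values that did not pass with all libraries. With quality weights these were S100B in H9 (−0.10), SPARCL1 (−0.04) and GJA1 (−0.07) over both lines, and SLC1A2 (0.08) and GJA1 (0.22) between lines in vehicle. Leaving out 1 library gave ranges across 0 in H9 for S100B (−0.11 to 0.28) and AGT (−0.07 to 0.28), and in H1 for GFAP (−0.23 to 0.05), AQP4 (−0.15 to 0.08), SLC1A2 (down to 0) and SLC1A3 (−0.07 to 0.29). The same held over both lines for GFAP (−0.01 to 0.37), SPARCL1 (−0.06 to 0.09) and GJA1 (−0.10 to 0.23), and between lines for GFAP (−0.07 to 0.66 in dexamethasone, −0.57 to 0.13 in vehicle), in vehicle for SLC1A2 (−0.11 to 0.07) and GJA1 (−0.34 to 0.31). Deviations of same-numbered cultures from their group means correlated at −0.22 to 0.27 (7 of 18 pairs over 0.1), which does not settle whether they were paired. The labels do not say that culture numbers mark a shared batch. The replicate block called 0 of the 10 genes for dexamethasone. In H1, ALDH1L1 rests on 31 to 111 counts per library.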
